A study of Mus musculus with 25 samples.

Results

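The comparison asked what loss of Mlkl added to the transcriptome of bone marrow neutrophils that already lacked Ripk3 and carried a neutrophil deletion of Ptpn6. Its members were the 6 libraries of these genotypes among the 25 of the series. The group carrying the extra deletion was Ripk3-/- Mlkl-/- Ptpn6 deltaPMN (3 libraries), and it was set against Ripk3-/- Ptpn6 deltaPMN (3 libraries). Both groups were from female C57BL/6J mice aged 6 to 13 weeks, labelled as not inflamed, and both shared the Ripk3 loss and the Ptpn6 deletion. The labels do not name the Cre driver behind deltaPMN, nor do they say whether replicates were separate mice, so p-values measure only the spread between libraries. Neutrophils were taken from the interface of a 68% and 78% Percoll gradient and sequenced as bulk mRNA with 100 bp paired reads. These groups are called Mlkl-deficient and Mlkl-sufficient from here on. For the same question with Ptpn6 intact, Ripk3-/- Mlkl-/- (2 libraries) was set against Ripk3-/- (3 libraries).

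Mlkl is the membrane-disrupting effector of necroptosis and is activated when the kinase Ripk3 phosphorylates it, so without Ripk3 this canonical route to Mlkl is missing. Ptpn6 encodes SHP-1, a tyrosine phosphatase that restrains signalling from cytokine, Fc and integrin receptors in neutrophils, and its loss in mice is known for neutrophil-driven inflammation. Caspase-8, encoded by Casp8, cleaves components of the necroptosis machinery.

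The 6 libraries held 21919446 to 22962181 estimated counts over 35741 gene symbols, so depth was even. All 12 neutrophil markers tested had 95% intervals of their change within a 2-fold change, and their summed level spanned 67360 to 123900 CPM (counts scaled to a fixed library total) in Mlkl-deficient libraries and 65940 to 128100 CPM in Mlkl-sufficient ones. Correlations of log2 levels across genes were 0.959 to 0.985 within groups and 0.962 to 0.985 between them, so the ranges overlapped. Mlkl-deficient replicate 3 correlated at 0.959 and 0.964 with its own group, and at 0.967, 0.978 and 0.962 with Mlkl-sufficient replicates 1, 2 and 3. For Mlkl-sufficient replicate 1 the values within its own group were 0.974 and 0.979. Its values with Mlkl-deficient replicates 1, 2 and 3 were 0.983, 0.982 and 0.967. Mlkl-sufficient replicate 1 stood apart in stromal genes: Col1a2, a collagen chain, had 139 CPM there and at most 0.768 CPM in each of the other 5 libraries. Mlkl-deficient replicate 3 was lowest of the 6 for the summed levels of B cell markers (526 CPM, against 796 to 2127 CPM in the others) and of cell cycle genes (588 CPM, against 877 to 1479 CPM). In bulk samples, fewer cells of a type and less RNA per cell cannot be told apart.

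Mlkl itself was measured at 0.230, 0.940 and 0.682 CPM in Mlkl-deficient libraries, against 1.77, 2.05 and 3.56 CPM in Mlkl-sufficient libraries. The groups did not overlap, with 43 counts over the Mlkl-deficient libraries against 175 over the Mlkl-sufficient ones. Its fitted log2 change was -1.997 (SE 0.40, edgeR quasi-likelihood test, unadjusted p = 9.76e-05, adjusted p = 0.791), and the exact two-sided permutation p of 0.1 is the smallest that 3 against 3 libraries can give. Wild-type neutrophils held 4.22 ± 0.680 CPM (SD, n = 3), so Mlkl was a low-abundance transcript in these cells even where the gene was whole. With Ptpn6 intact, Mlkl had 33 counts over 2 Ripk3-/- Mlkl-/- libraries and 115 counts over 3 Ripk3-/- libraries, a fitted log2 change of -1.14. Reads remained in the deleted libraries, and a table of 1 value per gene does not show which part of the transcript they cover.

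Ripk3 was near absent in both groups, with 3 counts in Mlkl-deficient and 7 counts in Mlkl-sufficient libraries, against 9.65 ± 0.961 CPM in wild-type (SD, n = 3). Ptpn6 stood at 255, 314 and 309 CPM in Mlkl-deficient libraries, against 295, 187 and 201 CPM in Mlkl-sufficient libraries. The groups overlapped through Mlkl-sufficient replicate 1, and all 6 values lay below the wild-type mean of 596 CPM. The fitted log2 change of Ptpn6 was 0.36 (SE 0.15, unadjusted p = 0.0302, adjusted p = 1 by edgeR). Casp8 was at 34.9, 31.4 and 30.7 CPM in Mlkl-deficient libraries, against 27.8, 28.1 and 27.0 CPM in Mlkl-sufficient libraries. These groups did not overlap, yet the difference was small (log2 change 0.23, adjusted p = 1 by edgeR, exact two-sided permutation p = 0.1).

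**Figure D1:**
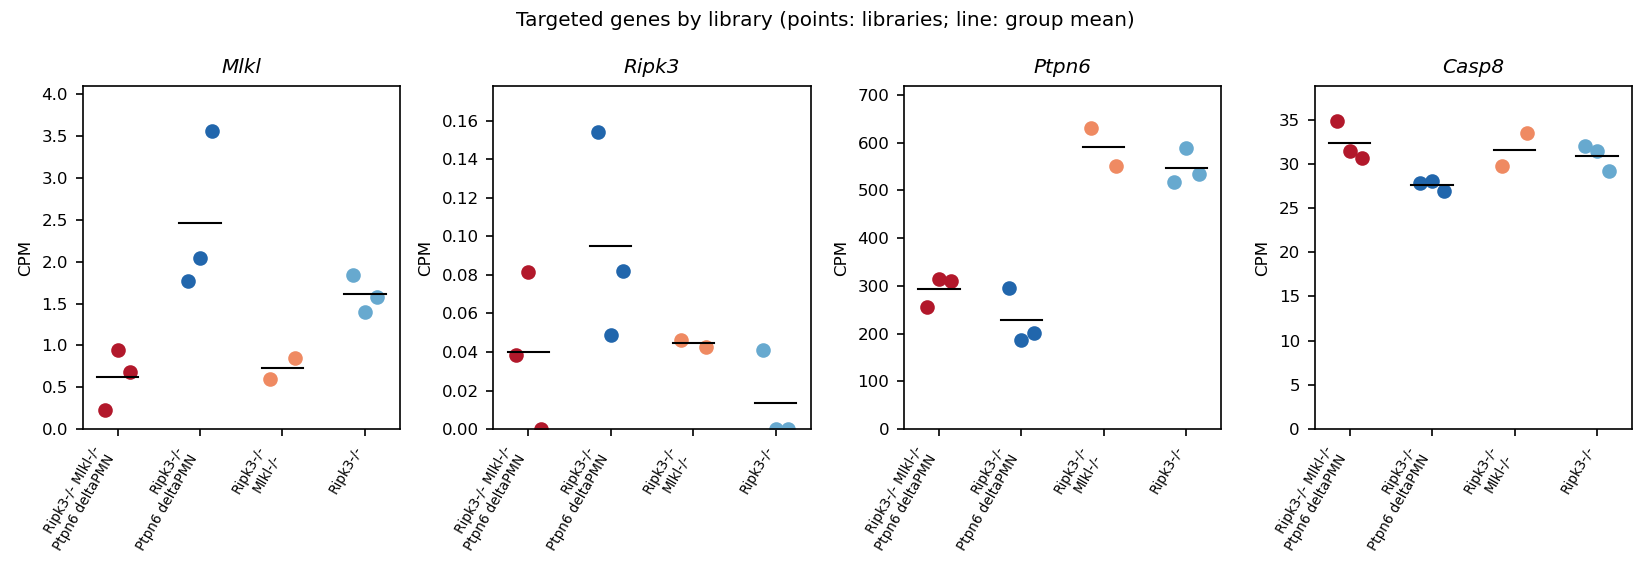
Levels of Mlkl, Ripk3, Ptpn6 and Casp8 in CPM (vertical axes, starting at 0) in each library of 4 genotypes, with the black line at the group mean. Mlkl lies between 0.230 and 0.940 CPM in the Mlkl-deficient libraries and between 1.77 and 3.56 CPM in the Mlkl-sufficient ones, and Ripk3 is close to 0 in all 4 groups.

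No gene passed the threshold of an adjusted p of 0.05 in the comparison of Mlkl-deficient with Mlkl-sufficient neutrophils. Of 16206 genes tested with edgeR's quasi-likelihood test, 0 were called (0%), and 482 (2.97%) had an unadjusted p under 0.05, 177 of them higher (1.09%) and 305 lower (1.88%). DESeq2 called 1 gene, Mlkl itself (adjusted p = 0.0411; over 12 alternatives the adjusted p of Mlkl ran between 0.0407 and 1, and 2 of them called it). Values of the 3 libraries of one group lay wholly above or below those of the other for 673 genes (4.15%), 332 higher and 341 lower. The median log2 change over all genes was 0.02, and 54.1% of genes were above 0 and 45.9% below. The 95% interval of the change lay within a 2-fold change for 11026 genes (68%), and for 8474 of the 9247 genes at 5 CPM or more (91.6%, median SE 0.163). Leaving out a single library called 1 gene in each of 2 cases. Without Mlkl-sufficient replicate 1 the gene was Lrp12 (adjusted p = 0.0253 by edgeR), and without Mlkl-deficient replicate 1 it was Ctnnd2 (adjusted p = 0.00932 by edgeR). Leaving out Mlkl-deficient replicate 3 and Mlkl-sufficient replicate 1 together, a setting chosen after their values were seen, called 119 genes by edgeR, Mlkl among them (adjusted p = 0.0407). No gene is taken from that fit, because picking these libraries by their values widens the difference by construction.

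**Figure D2:**
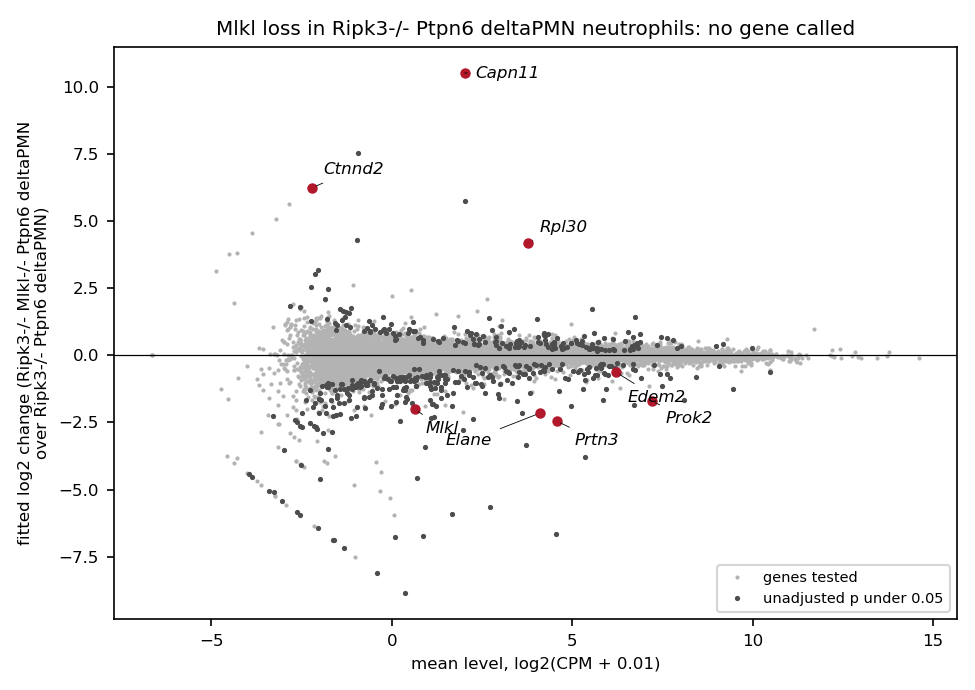
Fitted log2 change of Mlkl-deficient over Mlkl-sufficient neutrophils (vertical axis) against the mean level as log2(CPM + 0.01) (horizontal axis) for the 16206 genes tested. Dark points are the 482 genes with an unadjusted p under 0.05, red points are named genes, and none passed the adjusted threshold.

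Genes of the necroptosis machinery around Mlkl differed little between the groups. Of 29 tested genes of the necroptosis and caspase-8 complex list, 0 were called, 2 had an unadjusted p under 0.05 (Mlkl and the TRAIL receptor gene Tnfrsf10b, both lower), and 26 had 95% intervals within a 2-fold change. The list's median log2 change was 0.03, against 0.02 over all genes. Ripk1, the kinase upstream of Ripk3, was at 54.1, 59.9 and 73.8 CPM in Mlkl-deficient libraries, against 60.1, 85.3 and 68.5 CPM in Mlkl-sufficient libraries (log2 change -0.19, adjusted p = 1 by edgeR). The groups overlapped. Zbp1, a nucleic acid sensor that binds Ripk3, was at 25.6, 38.1 and 79.4 CPM in Mlkl-deficient libraries, against 43.8, 42.8 and 31.8 CPM in Mlkl-sufficient libraries. The high value was again Mlkl-deficient replicate 3, and the groups overlapped. Tnfrsf1b, a TNF receptor, was at 176, 163 and 166 CPM in Mlkl-deficient libraries, against 187, 202 and 180 CPM in Mlkl-sufficient libraries, without overlap (log2 change -0.17, adjusted p = 1 by edgeR). The ESCRT-III and membrane repair genes, which can reseal membranes damaged by Mlkl, had 0 of 27 called and a median log2 change of -0.03, with 26 of 27 intervals within a 2-fold change.

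Transcripts of azurophil granule proteins, which neutrophil precursors make at the promyelocyte stage, had the lowest median of the 23 pathway lists in Mlkl-deficient neutrophils, but none of them passed the adjusted threshold. Of 12 members tested, 9 were below 0 and 3 were above 0, at most 0.09. At an unadjusted p under 0.05, 7 were lower (1.88% of all genes were), and only these 7 are named and drawn below. Without overlap between the groups, 6 were lower (2.10% of all genes were). The summed level of the list was 1451, 1667 and 2196 CPM in Mlkl-deficient libraries. It was 1689, 2526 and 1951 CPM in Mlkl-sufficient libraries, so the groups overlapped on this sum. The list's median log2 change was -0.73, against 0.02 over all genes, and it lay between -1 and -0.57 over 12 alternatives. The list and its members were picked with these values known, and the counts are descriptive.

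The sequence windows of 3 members are printed because these had the largest log2 falls among the 7 azurophil genes named here. They share a run of letters. Windows of the other members are not given, so the run does not set these 3 apart from the list. Windows run from 250 bases before to 50 bases after the annotated start in RefSeq GRCm38.p6, on the plus strand, at chr10:79879417-79879716 for Prtn3, chr10:79886062-79886361 for Elane and chr11:87793534-87793833 for Mpo. Prtn3 and Elane lie next to each other on chromosome 10. Capitals mark GAGGAAG, letters that hold the purine-rich core bound by the myeloid factor PU.1.
Prtn3: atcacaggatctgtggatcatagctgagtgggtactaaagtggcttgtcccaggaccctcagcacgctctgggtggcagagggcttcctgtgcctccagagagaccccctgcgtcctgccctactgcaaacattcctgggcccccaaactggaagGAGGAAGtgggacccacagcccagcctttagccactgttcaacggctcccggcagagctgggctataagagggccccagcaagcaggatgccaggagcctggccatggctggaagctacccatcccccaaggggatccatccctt
Elane: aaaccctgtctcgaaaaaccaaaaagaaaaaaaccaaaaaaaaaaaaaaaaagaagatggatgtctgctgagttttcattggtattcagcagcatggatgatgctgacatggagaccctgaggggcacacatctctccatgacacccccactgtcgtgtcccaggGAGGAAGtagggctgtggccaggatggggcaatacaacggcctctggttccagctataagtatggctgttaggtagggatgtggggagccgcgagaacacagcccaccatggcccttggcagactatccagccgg
Mpo: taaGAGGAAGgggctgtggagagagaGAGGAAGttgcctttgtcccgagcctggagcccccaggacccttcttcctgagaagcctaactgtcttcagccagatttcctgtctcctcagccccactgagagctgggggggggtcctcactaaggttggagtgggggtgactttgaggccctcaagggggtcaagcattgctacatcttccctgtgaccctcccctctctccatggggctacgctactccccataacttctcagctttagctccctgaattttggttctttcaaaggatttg
Both strands were searched for GAGGAAG, for TTNNGNAA (a C/EBP-type half-site pair) and for TGTGGT (a RUNX-type core). GAGGAAG matched 1 time in the Prtn3 window, 1 time in the Elane window and 2 times in the Mpo window, and it occurs in 13.6% of the 32851 windows of the same length. TTNNGNAA (40.7% of windows) and TGTGGT (16.8%) were not among the letters of these 3 windows. A match is a description of letters and not a binding site.

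Prtn3, encoding proteinase 3, was at 4.03, 14.4 and 3.51 CPM in Mlkl-deficient libraries, against 25.1, 30.4 and 64.9 CPM in Mlkl-sufficient libraries. Every Mlkl-deficient library lay below every Mlkl-sufficient one, with a log2 change of -2.45 (SE 0.76, unadjusted p = 0.00474, adjusted p = 1 by edgeR). Elane, encoding neutrophil elastase, was at 3.802, 13.16 and 1.706 CPM in Mlkl-deficient libraries, against 20.5, 19.95 and 43.35 CPM in Mlkl-sufficient libraries. Its log2 change was -2.16 (SE 0.81, unadjusted p = 0.01585, adjusted p = 1 by edgeR). Mpo, encoding myeloperoxidase, was at 34.7, 87.5 and 14.4 CPM in Mlkl-deficient libraries, against 123, 140 and 228 CPM in Mlkl-sufficient libraries. The log2 change of Mpo was -1.84 (SE 0.73, unadjusted p = 0.0215, adjusted p = 1 by edgeR). For Elane and Mpo the groups did not overlap, and Mlkl-deficient replicate 2 was the highest of its group for all 3 genes. Ctsg, the cathepsin G gene, had 7.53, 12.7 and 2.97 CPM in Mlkl-deficient libraries, against 16.2, 20.4 and 25.4 CPM in Mlkl-sufficient libraries, also without overlap. Ms4a3, a membrane protein gene marking granulocyte-monocyte precursors, had 1.92, 5.72 and 4.00 CPM in Mlkl-deficient libraries, against 6.59, 14.7 and 14.0 CPM in Mlkl-sufficient libraries. Prss57, a granule serine protease, had a log2 change of -0.70 without overlap, and Ctsc, which activates the granule proteases, one of -0.75 with overlap. By edgeR the unadjusted p was 0.0032 for Ms4a3, 0.0040 for Prss57 and 0.0066 for Ctsc, each smaller than for Elane and Mpo. Elane, Mpo and Ctsg were named after their values were seen.

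Lists of the later granule programmes had medians nearer 0. Specific granule genes had a median log2 change of 0.00 (between -0.43 and 0.26 over 12 alternatives), with 18 of 19 intervals within a 2-fold change. Gelatinase granule and S100 genes had 17 of 19 below 0, 1 of them at an unadjusted p under 0.05, and a median of -0.10. That median lay between -0.59 and 0.13 over the 12 alternatives, which include the fit without 2 libraries picked by their values. With 1 library left out in turn it lay between -0.38 and 0.13. The azurophil median then lay between -0.87 and -0.57. Among markers of other cells, stem and progenitor genes had a median of -0.49 (8 of 10 below 0), and their summed level was 143 to 460 CPM in Mlkl-deficient libraries and 260 to 340 CPM in Mlkl-sufficient ones. Cd34 was at 0.883, 3.84 and 0.585 CPM in Mlkl-deficient libraries, against 3.78, 3.32 and 6.95 CPM in Mlkl-sufficient libraries. With a library left out in turn, the stem and progenitor median lay between -0.66 and -0.20. Eosinophil markers had a median of -0.58 (6 of 9 below 0), between -1.53 and -0.24 with a library left out and 0.13 without Mlkl-deficient replicate 3 and Mlkl-sufficient replicate 1 together. Monocyte markers had a median of -0.57 (7 of 11 below 0), which turned to 0.27 without Mlkl-sufficient replicate 3 and was -1.29 without Mlkl-deficient replicate 2. Lymphocyte markers lay on the other side. B cell markers had 12 of 12 above 0 and a median of 0.39, which was -0.07 without Mlkl-deficient replicate 1 and 0.81 without Mlkl-deficient replicate 3. T and NK cell markers had 13 of 15 above 0 and a median of 0.33, between 0.15 and 0.41 with a library left out. The part of these cells in the azurophil values was not tested. With Ptpn6 intact, the azurophil list had a median log2 change of -0.14, and Prtn3 was at 12.7 and 3.15 CPM in Ripk3-/- Mlkl-/- libraries, against 6.19, 7.82 and 11.3 CPM in Ripk3-/- libraries. The test of the difference between the Ptpn6-deleted and Ptpn6-intact changes gave an unadjusted p of 0.0477 for Prtn3 (adjusted p = 0.998 by edgeR), the smallest of the azurophil genes named. By edgeR it was 0.0606 for Ctsc, 0.0897 for Elane, 0.197 for Mpo, 0.271 for Ms4a3, 0.325 for Prss57 and 0.640 for Ctsg. Ptpn6-intact log2 changes were -1.03 for Ctsg, -0.79 for Ms4a3, -0.42 for Mpo and -0.38 for Prss57. They were -0.09 for Prtn3, -0.03 for Elane and -0.02 for Ctsc.

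**Figure D3:**
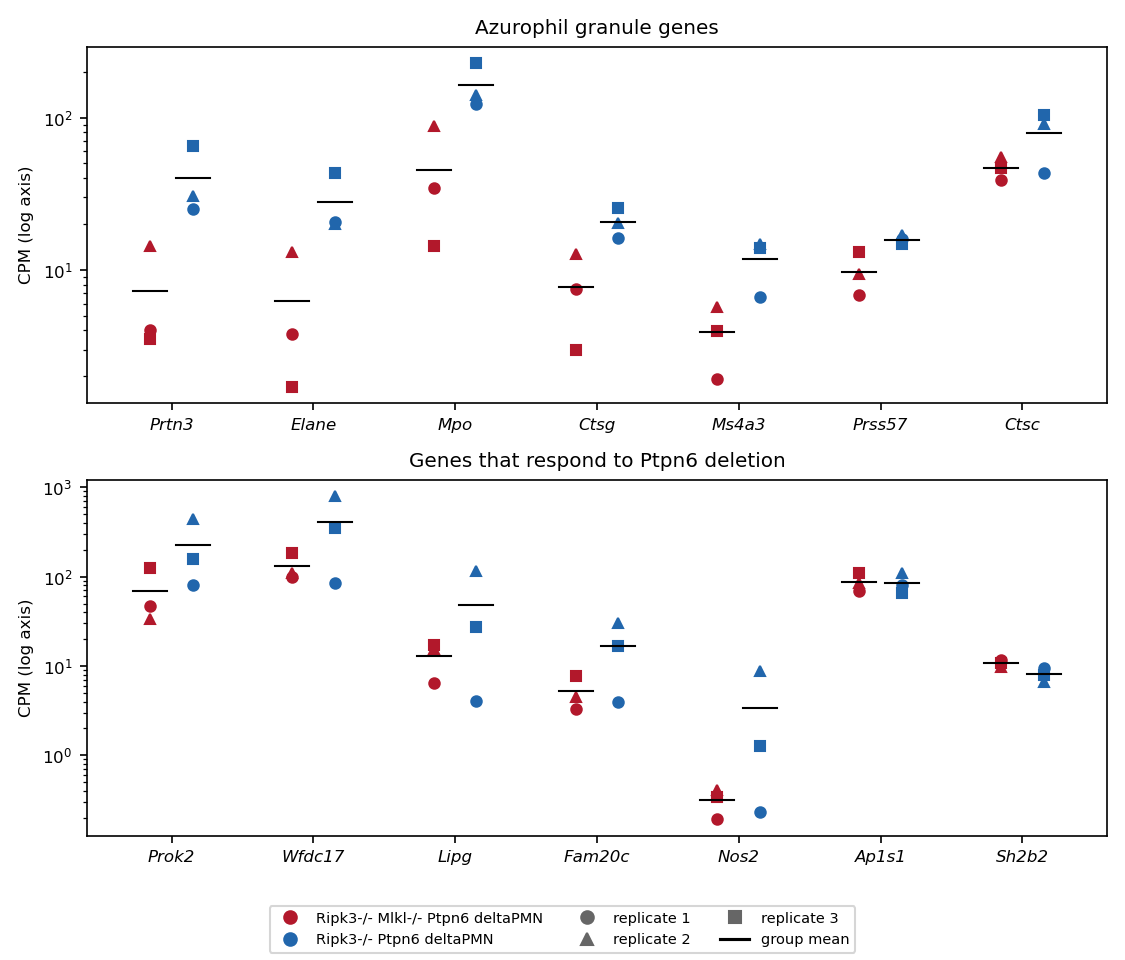
Levels in CPM (log axes) by library for 7 azurophil granule genes (upper panel) and 7 genes that respond to Ptpn6 deletion (lower panel), with Mlkl-deficient libraries in red to the left of Mlkl-sufficient libraries in blue, a symbol per replicate and a black line at the mean. Prtn3, Elane, Mpo, Ctsg, Ms4a3 and Prss57 do not overlap between groups, while Prok2, Wfdc17 and Lipg are led by Mlkl-sufficient replicate 2 at 436, 802 and 115 CPM.

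Genes that respond to Ptpn6 deletion were taken from other libraries: with Mlkl-/- Ptpn6 deltaPMN over Mlkl-/- neutrophils, 244 genes were called (1.51%), 160 higher (0.987%) and 84 lower (0.518%), the lower ones being 83 genes besides Ptpn6. That contrast shares no library with the present one. Of the 160 higher genes, 121 were below 0 in Mlkl-deficient over Mlkl-sufficient neutrophils (45.9% of all genes were). The median log2 change of the 160 was -0.23, and 0 were called. Of the 83 lower genes, 65 were above 0 (54.1% of all genes were), with a median of 0.19, and 0 were called. The mean level of the 160 genes, as log2(CPM + 1), was 4.78, 4.89 and 5.21 in Mlkl-deficient libraries, against 4.76, 5.65 and 5.28 in Mlkl-sufficient libraries. On this mean the groups overlapped. Mlkl-sufficient replicate 1 was the lowest of the 6, and its mean lay at that of the Ripk3-/- libraries (4.76 to 4.80). Replicate 2 of the same group was the highest. The mean does not hold for each gene: Ap1s1 was at 79.5 CPM in Mlkl-sufficient replicate 1, against 10.7 to 12.3 CPM in Ripk3-/- libraries. At an unadjusted p under 0.05, 41 of the 160 genes were lower (1.88% of all genes were), while 6 were lower without overlap (2.10% of all genes were). Among the 83 genes, 3 were higher at such a p (1.09% of all genes were), and 3 were higher without overlap (2.05%).

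Single genes of this response did not all follow the same libraries. Prok2, a chemokine-like ligand of neutrophils, was at 47.4, 33.5 and 125 CPM in Mlkl-deficient libraries, against 80.9, 436 and 157 CPM in Mlkl-sufficient libraries. Wfdc17, a small secreted inhibitor-like protein gene, was at 98.3, 109 and 184 CPM in Mlkl-deficient libraries, against 85.5, 802 and 348 CPM in Mlkl-sufficient libraries. In both genes the groups overlapped, and Mlkl-sufficient replicate 2 was far the highest library. Nos2, the inducible nitric oxide synthase, was at 0.192, 0.409 and 0.341 CPM in Mlkl-deficient libraries, against 0.231, 8.73 and 1.27 CPM in Mlkl-sufficient libraries. Sh2b2, an adaptor of receptor kinases, was at 11.8, 9.85 and 10.8 CPM in Mlkl-deficient libraries, against 9.48, 6.68 and 7.98 CPM in Mlkl-sufficient libraries, without overlap (log2 change 0.42, adjusted p = 1 by edgeR). These genes were chosen after their values were seen.

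Among genes at 5 CPM or more, those with the smallest unadjusted p on the lower side were led by Edem2, which acts in disposal of misfolded glycoproteins. Edem2 was at 54.8, 65.2 and 55.0 CPM in Mlkl-deficient libraries, against 75.3, 111 and 86.0 CPM in Mlkl-sufficient libraries. The groups did not overlap (log2 change -0.64, SE 0.15, unadjusted p = 0.000485, adjusted p = 1 by edgeR). Bcat2, a mitochondrial aminotransferase of branched-chain amino acids, was at 5.07, 6.74 and 3.61 CPM in Mlkl-deficient libraries, against 8.86, 11.7 and 11.9 CPM in Mlkl-sufficient libraries (log2 change -1.07). Zfp141, a zinc finger gene, and P4ha1, a collagen prolyl hydroxylase subunit, had log2 changes of -0.79 and -0.62, each without overlap. Pfkl, a glycolytic phosphofructokinase, was at 28.5, 23.6 and 25.5 CPM in Mlkl-deficient libraries, against 30.6, 44.1 and 41.1 CPM in Mlkl-sufficient libraries, without overlap. Rab7b, Slc2a1, Steap4, Ifitm1, Sema6b and Ggt1 were next, with log2 changes of -0.84 to -2.36. In these 6 the groups overlapped, and Mlkl-sufficient replicate 2 was the highest library. Without it the log2 changes were -1.60 for Rab7b, -0.38 for Slc2a1, -0.54 for Steap4, -0.66 for Ifitm1, -0.46 for Sema6b and -0.73 for Ggt1, each with an adjusted p of 1 by edgeR.

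On the higher side, Acsl1, which activates long-chain fatty acids, was at 184, 357 and 257 CPM in Mlkl-deficient libraries, against 176, 180 and 178 CPM in Mlkl-sufficient libraries (log2 change 0.58). The groups did not overlap, though Mlkl-deficient replicate 1 lay close to the other group. Lhfpl2, Trim14, Ddx24, Abhd13, Etv5 and Lyve1 also did not overlap, with log2 changes of 0.24 to 0.82, and Gpr141 (0.52) overlapped. All of these had an adjusted p of 1 by edgeR. Capn11, a calpain protease on chromosome 17, had 0, 338 and 214 counts in Mlkl-deficient libraries and 0 in every Mlkl-sufficient library, at least 184-fold higher against a floor of 3 counts over the group. It was at 0 in 3 of the 18 other grouped libraries and reached 11.3 CPM among them, and it was 0 in Mlkl-deficient replicate 1.

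A stretch of chromosome 15 held several of the largest differences, and the levels of Rpl30 and Ankrd46 there split the libraries within a genotype. Ctnnd2, a delta-catenin gene with the smallest p of all genes (edgeR unadjusted p = 1.29e-05, adjusted p = 0.210), had 3, 18 and 8 counts in Mlkl-deficient libraries and 0 counts in the Mlkl-sufficient ones. The groups did not overlap, and the level was at least 9.65-fold higher against a floor of 3 counts over the group. All 18 other grouped libraries held Ctnnd2 reads, at 0.0909 to 0.716 CPM. Rpl30, a ribosomal protein gene whose reads can be shared with near-identical copies, was at 2.11, 45.5 and 30.9 CPM in Mlkl-deficient libraries, against 1.93, 1.17 and 1.15 CPM in Mlkl-sufficient libraries. Mlkl-deficient replicate 1 sat with the other group, and the difference lay in the other 2 libraries. Ankrd46 followed the same libraries at 10.9, 27.4 and 31.6 CPM in Mlkl-deficient libraries, against 8.55, 9.41 and 9.49 CPM in Mlkl-sufficient libraries.

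Rpl30 also split libraries of a genotype with Mlkl. In Ripk3-/- libraries Rpl30 was at 38.9, 2.98 and 2.23 CPM, with Laptm4b, a lysosomal membrane protein gene of the same stretch, at 9.27, 24.2 and 24.6 CPM. Lrp12, a lipoprotein receptor family gene there, was at 0.768, 0.899 and 0.536 CPM in Mlkl-deficient libraries, against 0.501, 7.27 and 3.44 CPM in Mlkl-sufficient libraries, and the groups overlapped through replicate 1. Lrp12 did not divide the Ripk3-/- libraries as Rpl30 did, at 0.328, 0.425 and 0.599 CPM. It was at 1.62 and 5.14 CPM in Mlkl-/- Ptpn6 deltaPMN libraries, against 0.88, 0.61 and 0.75 CPM in Mlkl-/- libraries. Between 25 and 45 Mb of chromosome 15, a window chosen after the values were seen, 11 of 78 genes had an unadjusted p under 0.05 (14.1%), against 32 of 618 on the whole chromosome (5.18%). The share over all genes tested was 2.97%. A cause of these differences was not tested. Around Mlkl itself (chromosome 8, 111311255 to 111338479, GRCm38.p6), 69 genes within 5 Mb gave 0 called and 1 besides Mlkl at an unadjusted p under 0.05, Tmem170 (log2 change 0.29). Of all genes tested, 2.97% had such a p.

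**Figure D4:**
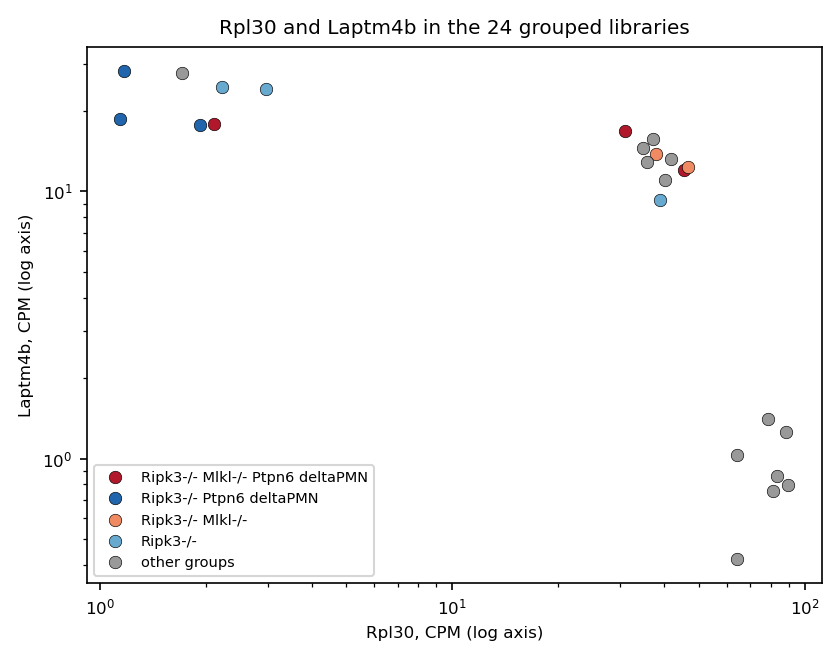
Rpl30 against Laptm4b in CPM (both log axes) in the 24 libraries that the labels assign to a group, coloured by genotype. Mlkl-deficient libraries lie at 2.11, 45.5 and 30.9 CPM of Rpl30, Mlkl-sufficient libraries at 1.15 to 1.93 CPM, and the Ripk3-/- libraries fall on both sides.

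Inflammatory and metabolic lists gave no call, and the medians of those given here lay between -0.19 and 0.31. Glycolysis and hypoxia genes had 24 of 27 below 0 and a median log2 change of -0.19. At an unadjusted p under 0.05, 4 of them were lower (1.88% of all genes were). The highest summed level was in Mlkl-sufficient replicate 2 (18320 CPM, against 10310 to 15380 CPM in the other 5). Without that library the median was -0.01, and without Mlkl-sufficient replicate 1 it was -0.35. Interferon response genes had 29 of 36 above 0 and a median of 0.20, with 0 at an unadjusted p under 0.05. Their summed level was 2837, 3143 and 5483 CPM in Mlkl-deficient libraries, against 3711, 3421 and 2825 CPM in Mlkl-sufficient libraries, and the groups overlapped. Without Mlkl-deficient replicate 3 the median was -0.12, and without any 1 of the other 5 libraries it stayed above 0, at most 0.35. Immediate early genes had 17 of 23 above 0 and a median of 0.31, the highest of the 23 pathway lists. Of these genes, 3 were higher at an unadjusted p under 0.05 (1.09% of all genes were). The median was 0.09 without Mlkl-deficient replicate 3 and 0.14 without Mlkl-deficient replicate 1. Jun, an AP-1 subunit, was at 26.3, 29.1 and 31.7 CPM in Mlkl-deficient libraries, against 22.1, 20.4 and 12.8 CPM in Mlkl-sufficient libraries, without overlap. Fos, its partner, was at 13.0, 31.3 and 172 CPM in Mlkl-deficient libraries, against 26.93, 21.95 and 17.18 CPM in Mlkl-sufficient libraries, and without Mlkl-deficient replicate 3 its log2 change was 0.01. The chemokine receptor gene Cxcr4, which retains neutrophils in the marrow, was at 603, 711 and 665 CPM in Mlkl-deficient libraries, against 579, 417 and 503 CPM in Mlkl-sufficient libraries, without overlap (log2 change 0.40, adjusted p = 1 by edgeR).

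**Figure D5:**
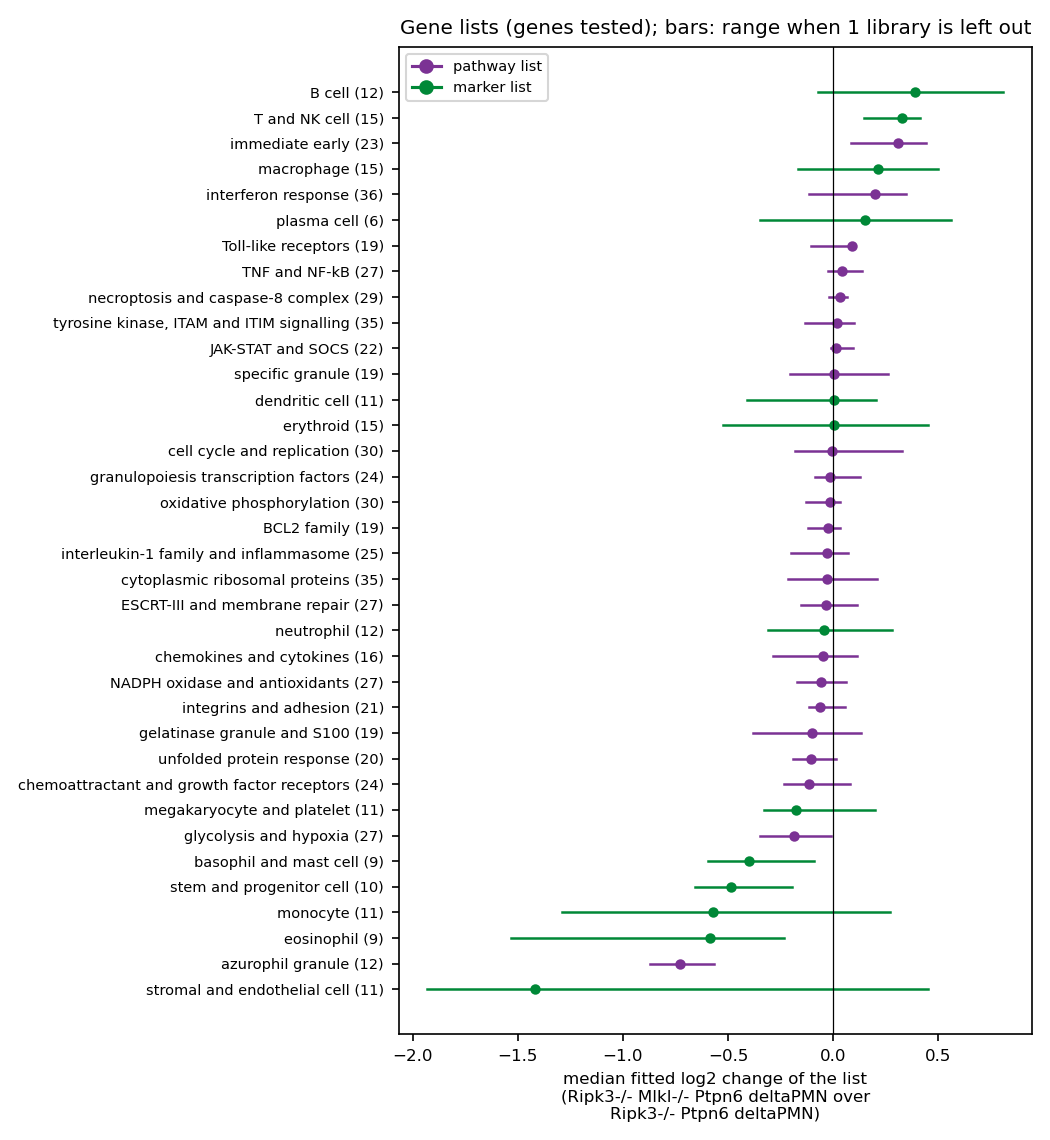
Median fitted log2 change (horizontal axis) of each of the 36 gene lists in Mlkl-deficient over Mlkl-sufficient neutrophils, with the number of genes tested in brackets and a bar from the lowest to the highest median when 1 of the 6 libraries is left out. Stromal genes (-1.42) and azurophil granule genes (-0.73) have the lowest medians, and the stromal bar crosses 0.

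With Ptpn6 intact, Mlkl loss in Ripk3-/- neutrophils likewise gave 0 of 16206 genes called by edgeR, with 597 below 0.05 before adjustment (3.68%). DESeq2 called 1 gene there (Slc15a2). The difference between both changes, fitted as an interaction, called 0 genes with edgeR and 0 with DESeq2, and 457 were below 0.05 before adjustment in edgeR (2.82%). Without Ripk3-/- Mlkl-/- replicate 3 these counts were 13 for the intact comparison and 7 for the interaction. The smallest interaction p among genes with established symbols at 5 CPM or more was that of P4ha1 (log2 difference -1.09, unadjusted p = 0.000802, adjusted p = 0.998 by edgeR). P4ha1 was at 10.3, 8.42 and 8.24 CPM in Mlkl-deficient libraries, against 11.4, 14.7 and 15.3 CPM in Mlkl-sufficient libraries. With Ptpn6 intact it was at 14.4 and 10.0 CPM in Ripk3-/- Mlkl-/- libraries, against 8.53, 10.1 and 7.96 CPM in Ripk3-/- libraries.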

How the data were processed

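Bone marrow neutrophil mRNA of 25 libraries was analysed, 6 of them in the main comparison. The authors deposited estimated counts per gene symbol, and Salmon 0.14.1, GRCm38.p6 and DESeq2 are named in the submitters' processing notes. These were rounded to whole numbers. One library whose title and genotype label disagree was put in no group. Genes were filtered with filterByExpr (minimum count 10, minimum total 15), normalised by TMM, and tested with edgeR 4.0.16 (quasi-likelihood F test, R 4.3.3) over 23 libraries of 9 groups, with Benjamini-Hochberg adjustment over 16206 genes and a threshold of 0.05. A self-check on simulated counts was passed before use. It required only that the median fitted change of genes raised in the simulation be close to the change set. It put no bar on how many of them were called. DESeq2 1.42.0, other size factors, no filter, only the compared libraries, a block on replicate number, and fits lacking 1 library each were alternatives. Ranges over alternatives also include the fit lacking 2 libraries picked by their values. Same-number deviations correlated at 0.234, -0.251 and -0.344, and different-number ones at -0.381 to 0.438, so the main fit held no replicate block. With so few libraries these values cannot exclude a batch shared by replicate number. Members, gene lists and tests were chosen with earlier results of these data known. Named genes were Mlkl, Ripk3, Ptpn6 and Casp8, the 12 smallest p in each direction at 5 CPM or more, and the leading members of each list, without predicted genes and without 1 gene that is not reported here; others are named as chosen after their values were seen, among them Laptm4b, Lrp12 and Ctnnd2. Gene positions and promoter windows are from RefSeq, GRCm38.p6. Figures were drawn with matplotlib 3.10.9.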

Additional observations from a re-analysis of the deposited data

How the results depend on the processing

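For Mlkl loss with Ptpn6 deleted, the count of called genes was 0 with DESeq2's size factors, with no filter on low counts and with only the 6 libraries compared, and 1 with the DESeq2 test (Mlkl) and with the replicate block (Ctnnd2, adjusted p = 0.0431 by edgeR). It ran between 0 and 1 when each library was left out in turn. With Ptpn6 intact the count was 1 with the DESeq2 test and ran between 0 and 13 with a library left out, and for the interaction it ran between 0 and 7. The unadjusted count for Mlkl loss with Ptpn6 deleted ran between 408 and 1590 with a library left out (1590 without Ripk3-/- Mlkl-/- Ptpn6 deltaPMN replicate 3, 1074 without Ripk3-/- Ptpn6 deltaPMN replicate 1) and was 159 with only the 6 libraries compared and 765 with no filter.

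One further setting was chosen after the values of the libraries had been seen. It left out Ripk3-/- Mlkl-/- Ptpn6 deltaPMN replicate 3 and Ripk3-/- Ptpn6 deltaPMN replicate 1 together, and it called 119 genes by edgeR, while 2697 were below 0.05 before adjustment. These 2 libraries were picked because they stood apart in their values, and they are also the libraries of their groups that lay nearest the other group for genes responding to Ptpn6 deletion, so leaving both out widens the difference by construction. No gene call is taken from it, but the count of 0 depends on keeping them.

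Direction reversed for a few genes that were never called. Leaving out each library in turn gave log2 changes of -0.14 to 0.27 for Ap1s1, -7.31 to 0.38 for Col1a2, -0.31 to 0.57 for Zbp1 and -0.35 to 0.43 for Slc15a2. Slc15a2 was 0.13 with the replicate block. With both libraries left out, the values were -0.18 for Ap1s1, 0.59 for Col1a2, -0.23 for Zbp1 and 0.02 for Slc15a2. The cause was not tested. The median SE of the log2 change was 0.256 over all genes and 0.163 over genes at 5 CPM or more.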
